A study of Arabidopsis thaliana with 3 samples.

Results

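The genes described here are 7 nuclear genes of the photosynthetic membrane, chosen by name from 9253 genes with a value. They are LHCB4.1 (AT5G01530), LHCB4.2 (AT3G08940) and LHCB4.3 (AT2G40100) of the light-harvesting antenna, PSBW (AT2G30570) and PSBY (AT1G67740) of photosystem II, PSAN (AT5G64040) of photosystem I, and the light-harvesting-like gene LIL3:1 (AT4G17600). They were picked with their mutant to wild-type ratios in these same arrays known. Those ratios are therefore given as a description. Their calls in the fit of all genes are counted once, beside the share of all genes called, and support nothing here. Each gene had 1 spot, none of the 7 was listed on a spot shared with other genes, and none had a deposited value of exactly 0.

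Photosystem II splits water and photosystem I reduces ferredoxin, and both sit in the thylakoid membranes of the chloroplast. Light energy reaches them through chlorophyll-binding antenna proteins encoded in the nucleus. In an inflorescence stem, chloroplasts are found mainly in the green cortex under the epidermis, outside the ring of xylem and interfascicular fibres.

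RNA came from stems of Arabidopsis thaliana. The mutant, nst1-1 nst3-1, carries T-DNA insertions in NST1 and NST3, NAC transcription factor genes of secondary wall formation, and is described in the labels as making no secondary xylem in stem and hypocotyl. The control was wild type, grown in the same cycle of 8 h light and 16 h dark without treatment. The lowest 4 cm was taken from stems 12 to 17 cm tall, so plants were matched by stem height. The sources used here give neither plant age nor any pooling of plants. Each of 3 two-colour arrays carried RNA of 1 mutant sample and of wild type, and the samples are called lines 1, 2 and 3 after their numbers. The series text calls the lines independent, yet all carry the same allele names, and nothing says whether the wild-type RNA was 1 extract. The p-values below measure only the spread between these 3 samples, which may be technical.

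All values are log2 ratios, mutant over wild type, so that -1 is a level 2-fold lower in the mutant. They hold no level of either RNA, and the levels of different genes cannot be set against each other. The deposited values were taken as Cy5 over Cy3 on a log10 scale, and the mutant was in Cy5 for lines 1 and 3 and in Cy3 for line 2. The direction is likely, not settled. It follows from the labelled dyes and from the 3 measured of 11 listed xylem markers. These had negative ratios on every array of a mutant described as lacking secondary xylem, but were listed with earlier results of these data known. HCT, of lignin monomer synthesis, had a mean ratio of -2.40 ± 0.17 (SD, n = 3 lines), and the xylan genes IRX15 and IRX15-L had means of -2.14 ± 0.23 and -1.43 ± 0.07. Under the opposite reading all signs turn, "lower" becomes "higher" throughout with the same counts and shares, and percentiles run from the other end. Across genes, the Pearson correlation was 0.784 between lines 2 and 3, 0.488 between lines 1 and 2, and 0.477 between lines 1 and 3. Line 1 thus stood apart, and values are given line by line.

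All 7 genes had a mean ratio below 0. PSBW and PSAN were the lowest, LHCB4.1, LHCB4.3 and LHCB4.2 followed, and PSBY and LIL3:1 were nearest to 0. The 7 means ran from -1.12 to -0.44, a 2.17-fold to 1.36-fold lower level, with a median of -0.75. The median over all genes was 0.0128. In bulk stem RNA, fewer green cells and less of these transcripts per green cell cannot be told apart.

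PSBW encodes a small membrane-spanning subunit of photosystem II that helps hold the core and its antenna together. Its log2 ratio was -0.86 in line 1, -1.36 in line 2 and -1.14 in line 3, with a mean of -1.12 ± 0.25 (SD, n = 3 lines). PSBY, another small subunit of photosystem II, which lies near cytochrome b559, had smaller differences of -0.57, -0.72 and -0.47 in lines 1 to 3. Its mean was -0.59 ± 0.13. The 2 photosystem II genes did not overlap, since the highest PSBW value lay below the lowest PSBY value. Line by line, PSBW was lower than PSBY by a mean difference of -0.53 ± 0.21.

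PSAN encodes a subunit on the lumen side of photosystem I that takes part in its exchange of electrons with plastocyanin. Its ratios were -0.85, -1.36 and -1.08 in lines 1, 2 and 3, with a mean of -1.10 ± 0.25 (SD, n = 3 lines), or 2.14-fold lower. These values were close to those of PSBW on each array. The line-by-line difference, PSBW minus PSAN, was -0.02 ± 0.03, so this photosystem II gene and this photosystem I gene did not differ beyond their spread.

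The 3 LHCB4 genes encode isoforms of CP29, a monomeric antenna protein between the core of photosystem II and its outer antenna trimers. LHCB4.1 had log2 ratios of -0.36, -1.18 and -1.05 in lines 1 to 3, with a mean of -0.86 ± 0.44 (SD, n = 3 lines). LHCB4.2 had ratios of 0.10, -0.94 and -1.05, with a mean of -0.63 ± 0.63. It was the 1 gene of the 7 with a ratio above 0 on any array. LHCB4.3, whose protein is the more divergent isoform, had ratios of -0.80, -0.88 and -0.57, with a mean of -0.75 ± 0.16.

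The isoforms differed in how far the lines spread. LHCB4.1 and LHCB4.2 were about 2-fold lower in lines 2 and 3 and nearer to wild type in line 1. LHCB4.3 was lower by a like amount in all lines, with a range of 0.31 between its highest and lowest value, against 0.82 for LHCB4.1 and 1.15 for LHCB4.2. In line 1 LHCB4.3 was lower than LHCB4.2 by a difference of -0.89, while in line 3 it was higher by 0.48. Their mean difference, LHCB4.3 minus LHCB4.2, was -0.12 ± 0.70, well within the spread. LHCB4.1 minus LHCB4.3 was -0.11 ± 0.49, also within the spread. LHCB4.1 and LHCB4.2 are close paralogues, and whether a probe of one also binds the transcript of the other was not tested.

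LIL3:1 encodes a membrane protein related to the antenna proteins that binds geranylgeranyl reductase, an enzyme of chlorophyll and tocopherol synthesis. Its ratios were -0.34, -0.68 and -0.30 in lines 1, 2 and 3, with a mean of -0.44 ± 0.21 (SD, n = 3 lines), or 1.36-fold lower. This was the smallest mean difference of the 7. In the order of means, LIL3:1 followed PSBY, and the line-by-line difference, PSBY minus LIL3:1, was -0.15 ± 0.10. PSBY was the lower of the pair in all 3 lines. The neighbours PSAN and LHCB4.1 differed by -0.24 ± 0.24, and LHCB4.2 and PSBY by -0.05 ± 0.64, neither clearly beyond the spread.

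**Figure D1:**
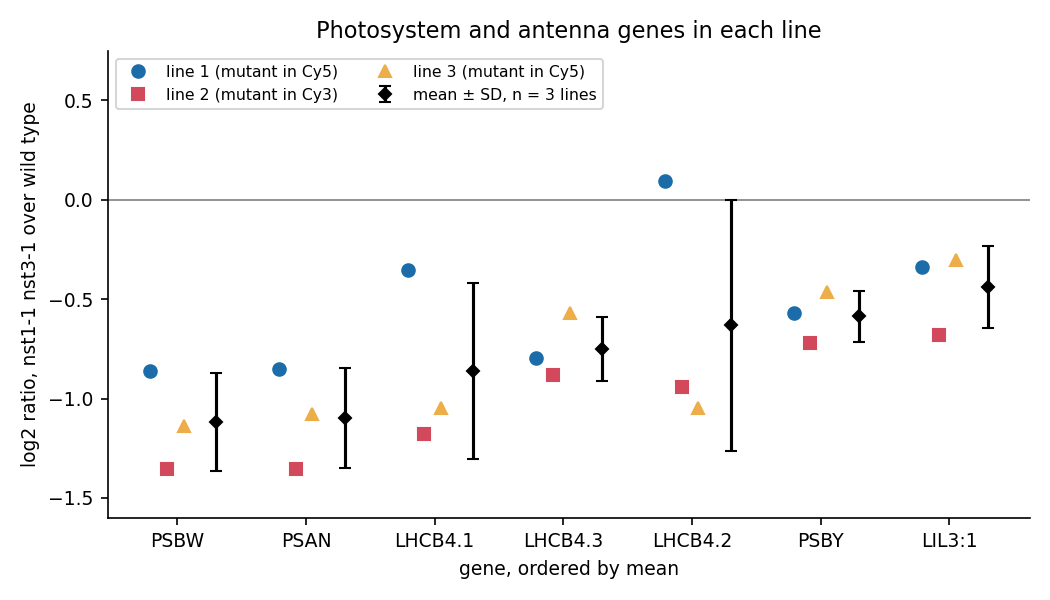
Log2 ratio of nst1-1 nst3-1 over wild type (y axis) for the 7 genes (x axis, ordered by mean), with 1 point for each line and the mean ± SD of the 3 lines as a diamond. All points but that of LHCB4.2 in line 1 (0.10) lie below 0, and the points of LHCB4.1 and LHCB4.2 spread the most.

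The arrays were not equally far from 0. In line 1 the 7 genes had a median log2 ratio of -0.57, with 3 at least 1.5-fold lower and none 2-fold lower. In line 2 the median was -0.94, with all 7 at least 1.5-fold lower and 3 at least 2-fold lower. In line 3 the median was -1.05, with 4 of the 7 at least 1.5-fold lower, and the same 4 at least 2-fold lower. The medians over all genes were 0.0098, 0.01 and 0.014 on these arrays. The deposited ratios have a median of 0 on each array, so a shift shared by a whole array could not be seen here. The spread over all genes was widest in line 1, with an SD of 0.58 against 0.51 in line 2 and 0.47 in line 3.

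Read as ranks, the mean ratios of the 7 genes lay between percentiles 1.92 (PSBW) and 8.55 (LIL3:1) of the 9253 genes. In line 2 they lay between percentiles 1.60 and 6.02, and in line 3 between 1.98 and 15.2. In line 1 the range was wider, from 4.87 for PSBW to 60.7 for LHCB4.2. Of the 7 genes, 6 were lower on all 3 arrays, as were 23.9% of all genes. At least 1.5-fold lower on all 3 arrays were 2 of the 7, PSBW and PSAN, and 3.2% of all genes. In the limma fit, 3 of the 7 (PSBW, PSAN and LHCB4.3) had an adjusted p under 0.05 and were lower (Benjamini-Hochberg), where 2.6% of all genes were called lower and 0.789% higher. Since the genes were chosen on this contrast, nothing is read from these counts.

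**Figure D2:**
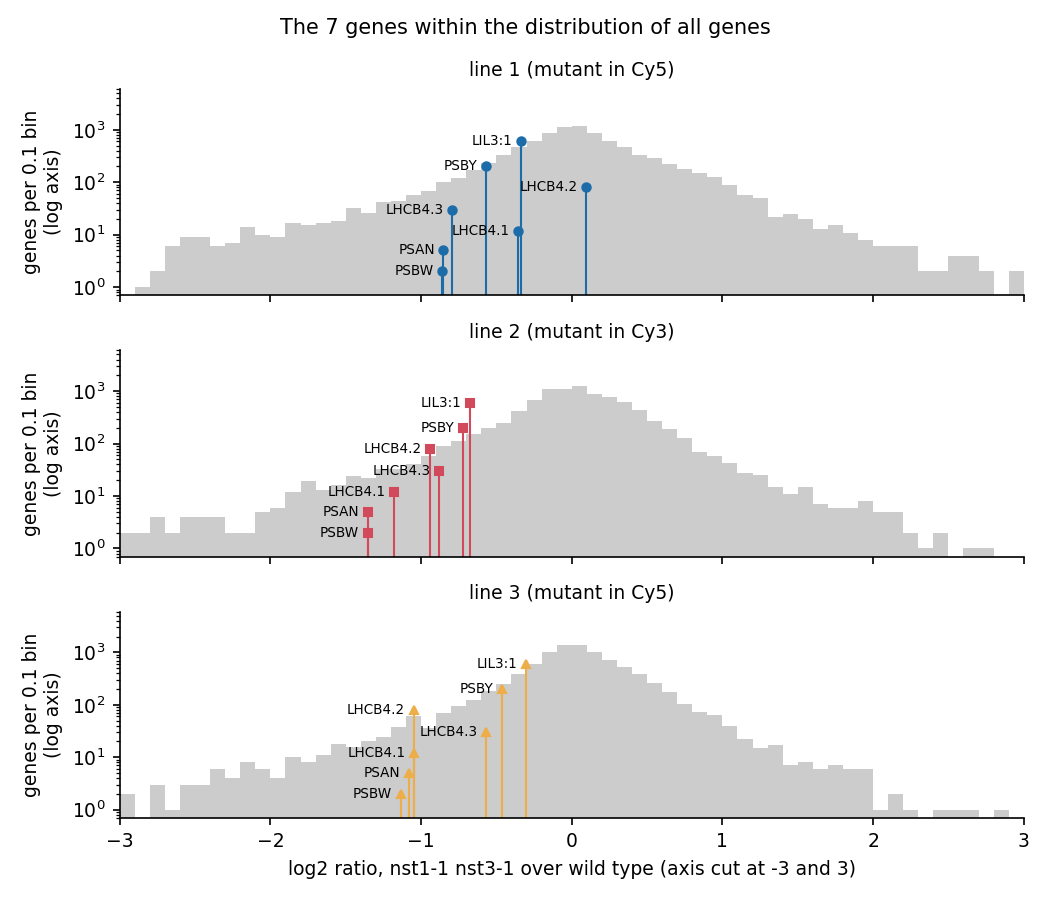
Number of genes per 0.1-wide bin of log2 ratio (log y axis) on each of the 3 arrays, with the 7 genes marked on the x axis by labelled stems whose heights only separate the names. All 7 genes lie left of the centre in lines 2 and 3, LIL3:1 least so in line 3 (-0.30), while in line 1 LHCB4.2 (0.10) lies near the centre.

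Line 2, the array with the mutant in Cy3, gave the lowest value of the 3 lines for 6 of the 7 genes, against 34.4% of all genes. LHCB4.2 was lowest in line 3, and line 1 was lowest for none. For all 7 the line 2 ratio lay below the mean of lines 1 and 3, as it did for 53.5% of all genes. With only line 2 in that dye orientation, line and dye cannot be told apart. Giving both dye orientations equal weight moved the means to between -1.18 (PSBW) and -0.50 (LIL3:1).

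Line 1 was closer to wild type than the mean of lines 2 and 3 for 6 of the 7 genes, LHCB4.3 being the exception at -0.07. It was the highest of the 3 lines for only 4 of the 7, against 43.3% of all genes. For PSBY, LIL3:1 and LHCB4.3 the highest was line 3. The gap, line 1 minus the mean of lines 2 and 3, was above 0 for 19 of the 21 other measured photosynthesis-list genes described below. It was above 0 for 53.9% of all genes. The gap was 1.09 for LHCB4.2, 0.76 for LHCB4.1, 0.38 for PSBW and 0.36 for PSAN on the log2 scale. It was 0.15 for LIL3:1 and 0.02 for PSBY. A gap above 0.5 was thus reached by LHCB4.2 and LHCB4.1, by 7 of the 21 other photosynthesis genes and by 11.3% of all genes. Among those 7 were the Rubisco activase gene RCA at 1.18 and the thylakoid gene CURT1D at 1.15, so such a gap was not particular to the LHCB4 genes. A gap above 0 need not mean that line 1 was closer to wild type. CURT1D was at 1.25 in line 1 against 0.10 in the mean of lines 2 and 3. The chlorophyll synthesis gene PORB was at 0.48 against -0.31. The phloem sugar transporter gene SWEET11 was also highest in line 1, at 2.28, against 0.16 and -0.50 in lines 2 and 3. The other measured phloem marker, CLE41, was highest in line 3, at 0.40, against -0.10 and -0.26 in lines 1 and 2. Their part in the difference between lines was not tested.

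**Figure D3:**
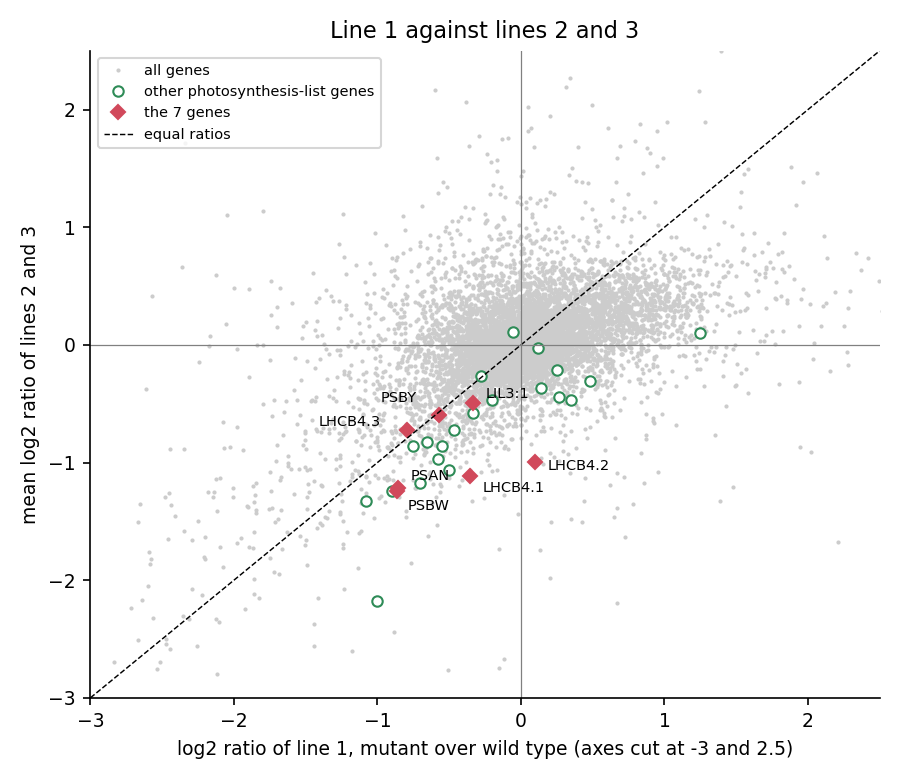
Log2 ratio of line 1 (x axis) against the mean log2 ratio of lines 2 and 3 (y axis) for all genes (grey points), the other genes of the photosynthesis lists (open circles) and the 7 genes (diamonds). LHCB4.2 and LHCB4.1 lie farthest below the dashed line of equal ratios among the 7, by 1.09 and 0.76. PSBY and LHCB4.3 lie next to it, with gaps of 0.02 and -0.07.

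The rest of the pathway was read from lists of 141 nuclear photosynthesis genes, of which 28 were measured, the 7 included. Measured means here that a spot with 1 listed gene carried that gene's name. Of the 21 others, 4 fell by limma at an adjusted p under 0.05, none rose, and 17 did not pass. At an unadjusted p under 0.05, 13 were lower and none higher, where 11.9% and 13.9% of all genes were. The median mean ratio of the 21 was -0.50, against 0.0128 over all genes, and 13 of them were lower on all 3 arrays. The count of genes called changed with the fit, also over all genes. There, 241 were lower with all lines, 583 without line 1, and 0 without line 2 or without line 3. Those fits had 2 arrays each, and the other fits are given at the end. Among the 21, the count of 4 changed too. It was 12 without line 1 and 0 without line 2 or without line 3, and it was 0 with a dye term or with all spots of the array fitted together.

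Among the thylakoid genes nearest to the 7 in function, CURT1A (AT4G01150) and CURT1C (AT1G52220), which curve the thylakoid membrane at the edges of the grana, both fell. CURT1A had log2 ratios of -0.751, -0.997 and -0.718 in lines 1 to 3, with a mean of -0.82 ± 0.15 (SD, n = 3 lines; limma adjusted p = 0.0437). CURT1C had ratios of -0.66, -0.87 and -0.77 and a mean of -0.77 ± 0.11 (limma adjusted p = 0.0417). Their relative CURT1D (AT4G38100) did not pass, at 1.25, 0.16 and 0.05 (limma adjusted p = 0.361).

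The other measured thylakoid genes did not pass the test, although those named next had means within the range of the 7. PSAE-1, a subunit on the stroma side of photosystem I, was at -0.58, -1.14 and -0.79 in lines 1 to 3 (limma adjusted p = 0.0602). PSB27, a factor of photosystem II assembly, was at -0.50, -1.04 and -1.08 (limma adjusted p = 0.0646). ATPC1, the gamma subunit of the chloroplast ATP synthase, had a mean of -0.76 ± 0.20 (limma adjusted p = 0.0511). The listed locus AT2G26500 had a mean of -1.02 ± 0.29 (limma adjusted p = 0.0502). Both passed with the arrays centred on their median and with values of exactly 0 left out.

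LIL3:2, the paralogue of LIL3:1, was at -0.34, -0.51 and -0.65 in lines 1 to 3, a mean of -0.50 ± 0.16 (limma adjusted p = 0.0753). The paralogues had the same value in line 1. The listed locus AT1G22700 had a mean of 0.02 ± 0.13.

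Chlorophyll synthesis was represented by 9 of 26 listed genes, and none passed the test in either direction (limma, 3 lower and 0 higher at an unadjusted p under 0.05). Their median mean ratio was -0.20, against -0.75 for the 7 genes. The 7 were chosen with their ratios known, so nothing is read from this difference, which was not tested. CHLM, the methyltransferase of magnesium protoporphyrin, was the lowest, at -0.47, -0.81 and -0.64 in lines 1 to 3 (limma adjusted p = 0.0588). HEME1, a uroporphyrinogen decarboxylase, had a mean of -0.38 ± 0.16, and CHLI2, a subunit of magnesium chelatase, one of -0.27 ± 0.08.

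Several genes of this list shared the signs of LHCB4.2, with a ratio above 0 in line 1 and below 0 in lines 2 and 3. The likeness is in sign only, since LHCB4.2 was at 0.10, -0.94 and -1.05. The share of all genes with these signs was not counted. AT1G74470, the geranylgeranyl reductase that LIL3 proteins bind, was at 0.35, -0.59 and -0.34. The protochlorophyllide oxidoreductase gene PORB was at 0.48, -0.24 and -0.38. HEME2 was at 0.27, -0.51 and -0.37, HEMA2 at 0.14, -0.42 and -0.31, and GSA1 at 0.25, -0.18 and -0.26. These last genes act at early steps shared with haem synthesis. AT1G74470, HEME2 and HEMA2 were named after their values had been seen. HEMB1 was near 0, with a mean of 0.05 ± 0.10.

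The 3 measured genes of carbon fixation had lower means than each of the 7 genes, SBPASE only within its spread, at -1.13 against -1.12 for PSBW. Of these Calvin cycle genes, PRK (phosphoribulokinase) and SBPASE (sedoheptulose bisphosphatase) fell, with means of -1.25 ± 0.23 and -1.13 ± 0.24 (SD, n = 3 lines; limma adjusted p = 0.0359 and 0.0406). The Rubisco activase gene RCA did not pass, at -1.0, -2.41 and -1.95 (limma adjusted p = 0.0627). None of the 11 listed transcription factors of photosynthesis genes, GLK1 and GLK2 among them, was on a spot with 1 listed gene. They were not analysed here, and the array may still hold spots for them.

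**Figure D4:**
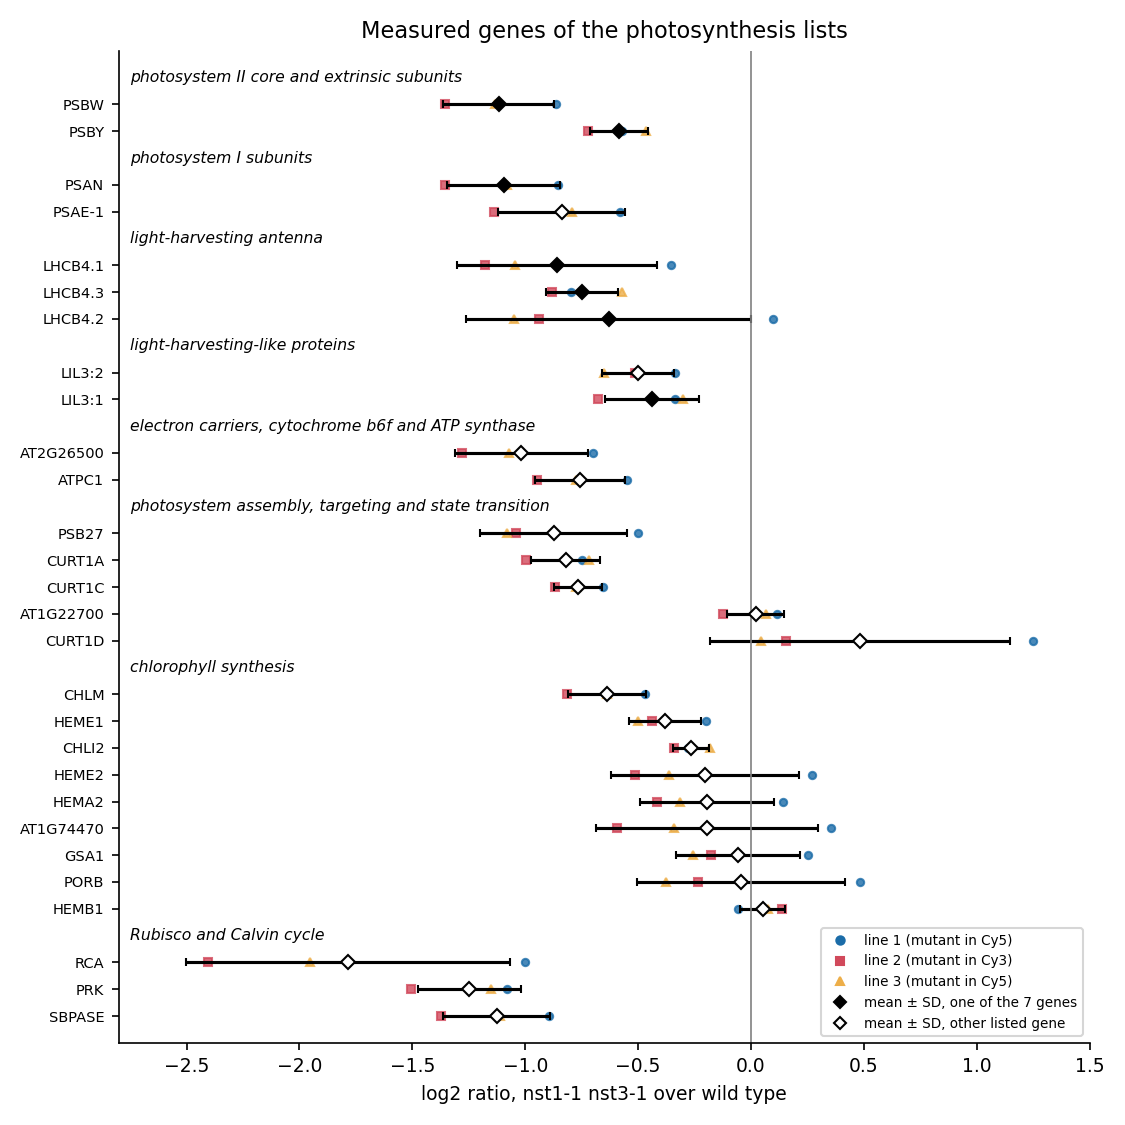
Log2 ratio of nst1-1 nst3-1 over wild type (x axis) for the 28 measured genes of the photosynthesis lists (y axis, grouped by list), with 1 coloured point for each line and a diamond with bar for the mean ± SD of 3 lines, filled for the 7 genes. Photosystem, antenna and Calvin cycle genes lie left of 0, apart from LHCB4.2 in line 1, while most chlorophyll synthesis genes lie close to 0 or on both sides of it.

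Markers of other stem tissues were measured too. All 3 measured xylem markers of 11 listed, HCT, IRX15 and IRX15-L, fell on every array (limma adjusted p = 0.00917, 0.0126 and 0.0126). The direction of the ratios was itself read partly from these genes, so their sign is no separate result. The 3 measured markers of phloem and epidermis, of 10 listed, did not pass in either direction (limma, 0 at an unadjusted p under 0.05). SWEET11 had a mean of 0.64 ± 1.46 (SD, n = 3 lines), with the line values given above. CLE41, a peptide gene of phloem and cambium, had a mean of 0.01 ± 0.34, and the wax synthase gene WSD1 one of -0.03 ± 0.08. The part of changed tissue proportions in the ratios of the 7 genes was not tested.

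Genes outside the lists also had this profile. The 7 genes averaged -0.53, -1.02 and -0.81 in lines 1 to 3. Of the genes outside the 7, the 5 closest to this mean profile, by Euclidean distance over the 3 arrays, were AT1G23040, ATPC1, AT3G19800, AT4G00165 and AT5G58980, at distances of 0.068 to 0.12. The 7 genes themselves lay at 0.34 to 0.67 from it, and 371 other genes lay as close as the farthest of them. Of the 100 closest genes, 6 were on the photosynthesis lists, ATPC1 included. Those lists hold 21 measured genes outside the 7, among 9253 genes in all. With 3 arrays, such likeness is a description only.

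The 7 genes lie on all 5 chromosomes, as their locus codes show, and none neighbours another. Of the 14 protein-coding genes directly beside them, 3 were measured. AT5G64030, beside PSAN, fell with a mean of -0.93 ± 0.25 (limma adjusted p = 0.0494). AT2G40110, beside LHCB4.3, had a mean of -0.27 ± 0.06 (limma adjusted p = 0.133). AT1G67750, beside PSBY, was at -0.60, 2.07 and 2.26 in lines 1 to 3 (limma adjusted p = 0.321), above 0 in lines 2 and 3, where PSBY was below 0. These genes were named after their values had been seen.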

How the data were processed

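The deposited table holds the authors' log ratios of both dyes for 22236 spots on each array, which have a median of 0. They were taken as log10 values because the lowest value over the 3 arrays is exactly -2, a 100-fold ratio. Whether each array reaches that value was not recorded. They were multiplied by 3.32 to give log2. If the base were 2, all log2 values printed here would shrink by that factor; p-values would not change. What the authors did to make these log10 ratios (scanner, background, dye normalization) is not given in the sources used here. Spot intensities were not used here, so signal over background was not judged, and the 3 arrays limit the precision.

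The sign of line 2 was turned by its dye. Spots with 1 listed gene (9335) were named through the platform annotation and the TAIR10.1 gene table, and spots of a gene were averaged (79 genes with several). The other spots, 12861 with no listed gene and 40 with several, gave no gene values. A gene not measured here may therefore still have a spot on the array. limma 3.58.1 in R 4.3.3 (lmFit, eBayes) tested all 9253 genes against 0, two-sided, with Benjamini-Hochberg adjustment, and was tested on simulated data. Wild type has no spread of its own in this fit.

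Genes and lists were chosen with earlier results of these data known. Named were the 7 genes, the other measured genes of each list (in lists with more than 8, those called and the 3 highest and 3 lowest, here widened to all 9 of chlorophyll synthesis), the xylem markers and the 5 nearest profiles. Sequences were not used here.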

Additional observations from a re-analysis of the deposited data

How the results depend on the processing

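The mean log2 ratio of LHCB4.2 went from -0.63 to -0.99 without line 1, its highest value. That all means of the 7 genes, LHCB4.2 included, moved by less than 1 SD says nothing about stability. A mean of 3 cannot move farther when 1 line is left out, and leaving out zeros or taking each spot on its own cannot change these genes. Main counts were 241 genes lower and 73 higher, with 4 lower among the 21 other photosynthesis genes. Arrays scaled to equal spread gave 175 higher, and values of exactly 0 left out gave 140 higher. A dye term gave 0 lower, 0 higher and 0 photosynthesis genes lower (limma, 1592 genes and 11 of the 21 at an unadjusted p under 0.05), with 1 residual degree of freedom by construction. Fitting all spots gave 66 lower, 3 higher and 0 photosynthesis genes lower (13 of the 21 unadjusted), and the cause was not tested. Leaving out 1 line gave 0 to 583 genes lower, 0 to 574 higher and 0 to 12 photosynthesis genes lower, each fit having 2 arrays. The high ends came without line 1, and the counts were 0 without line 2 (limma, 1373 genes unadjusted) and without line 3 (1430). Mutant and wild type were paired on each array, and the fit tested these within-array ratios against 0 as 1 group.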
